A study of Homo sapiens with 6 samples.

Results

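The matrix metalloproteinases (MMP), the ADAM and ADAMTS proteases and their TIMP inhibitors were followed in NCRM-1 aggregates. The members were all genes of the count files whose GENCODE 44 symbol is MMP, ADAM, ADAMTS or TIMP followed by a number, with MMP23B included. The rule found 66 of the 19977 genes listed, namely 23 MMP, 20 ADAM, 19 ADAMTS and 4 TIMP genes. NCRM-1 is a human induced pluripotent stem cell line, labelled wild type. Its cells were seeded as single cells in vertical wheel bioreactors and grown as aggregates for 4 days, with 50% of the medium replaced on day 2. The treated group (PEG and HS, 3 libraries) had E8 medium with 10 mg/ml polyethylene glycol and 0.1 µg/ml heparin sodium salt, and the control group (E8 control, 3 libraries) had E8 medium alone. The treatment text of the labels describes both additives for all 6 libraries, so groups were taken from the treatment field of each library. The labels speak of the control and the treated bioreactor in the singular. If so, the effect of a vessel cannot be told apart from that of its medium, and errors and p-values cover only the spread among samples that may come from the same culture.

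MMPs, ADAMTSs and the ADAMs with a protease site are zinc proteases that are made with an inhibitory propeptide and become active once it is removed. Of the 20 ADAM members, 8 are classed here as without a protease site. MMPs cut collagens, laminins and other matrix proteins and are either secreted or held at the cell surface by a transmembrane segment or a glycosylphosphatidylinositol (GPI) anchor. ADAMs are transmembrane proteins, many of which release the outer part of adhesion molecules, Notch ligands and growth factors. ADAMTSs are secreted and trim proteoglycans and procollagens. TIMPs bind in the active site of these enzymes. In aggregates of pluripotent cells the substrates include the pericellular matrix and the cadherins that hold cells together.

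Total counts per library were 26991279 to 36185138, and the members took 0.138% to 0.144% of them. Pluripotency markers were present in every library, with POU5F1, NANOG, SOX2 and 7 others summing to 9344 to 9608 CPM (counts divided by the TMM-adjusted library size in units of 1000000) in PEG and HS and 9655 to 9852 CPM in E8 control. Of these 10 markers 4 were called higher and 4 lower, with log2 differences from -0.59 to 0.55. Neuroectoderm markers (SOX1, PAX6, OTX2, LHX5, OLIG3, HES5) summed to 33.5 to 37.5 CPM in PEG and HS and 142 to 147 CPM in E8 control, and all 6 were lower in PEG and HS. HES5 was under 1 CPM in each library. The 9 fibroblast and mesenchyme markers summed to 177.98 to 187 CPM and 240.5 to 269 CPM, with TWIST1 under 1 CPM in each library. Most of that sum came from COL1A1, with means of 60.1 and 120 CPM, and COL1A2, with 98.4 and 104 CPM. The 7 amnion and trophectoderm markers summed to 6.94 to 7.15 CPM and 14.9 to 15.9 CPM, with CDX2, GATA3, ISL1 and HAND1 under 1 CPM in each library. The 6 mesoderm markers summed to 5.87 to 6.05 CPM and 6.19 to 7.79 CPM, and the 5 endoderm markers to 2.90 to 2.94 CPM and 3.52 to 4.26 CPM, with TBXT, EOMES, MESP1, GSC, SOX17, GATA4 and GATA6 under 1 CPM in each library. The 4 endothelium and blood markers summed to 58.4 to 61.8 CPM and 51.9 to 54.7 CPM, with PECAM1, CDH5 and PTPRC under 1 CPM in each library. In bulk RNA, fewer cells of a type and less RNA per cell cannot be told apart, and the part of these markers in the results on proteases was not tested.

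Of the 66 members, 50 had at least 10 counts over the 6 libraries and were tested, and 16 had 6 counts or fewer. The media were set against each other by the quasi-likelihood test of edgeR. The p-values were adjusted by the Benjamini-Hochberg method over all 16505 genes tested (adjusted p). With a limit of 0.05, 12 members passed with higher and 10 with lower levels in PEG and HS, against 25.3% of all genes tested in either direction (12.2% higher and 13.1% lower). The called share of the tested members was 44%. Calls are more frequent among well counted genes. Among genes with at least 10 CPM in either medium 32.9% were called, and 15 of the 23 such members (65.2%) were. The differences were small for most members. A difference of at least 1.5-fold was reached by 6 of the 22 called members, MMP9 upward and MMP24, ADAMTS2, ADAMTS4, ADAMTS18 and ADAM12 downward. These were 6 of the 50 tested members. Over all genes, 731 of the 16505 tested (4.43%), or 731 of the 4173 called, were called with such a fold. The median log2 fold change (log2FC, PEG and HS over E8 control) of the tested members was 0.042, against 0.0031 over all genes tested, and the median size was 0.16 against 0.12. In 27 members the treated libraries did not overlap with the controls, 15 with higher and 12 with lower CPM in PEG and HS, whereas 39.3% of all genes tested did not overlap.

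**Figure D1:**
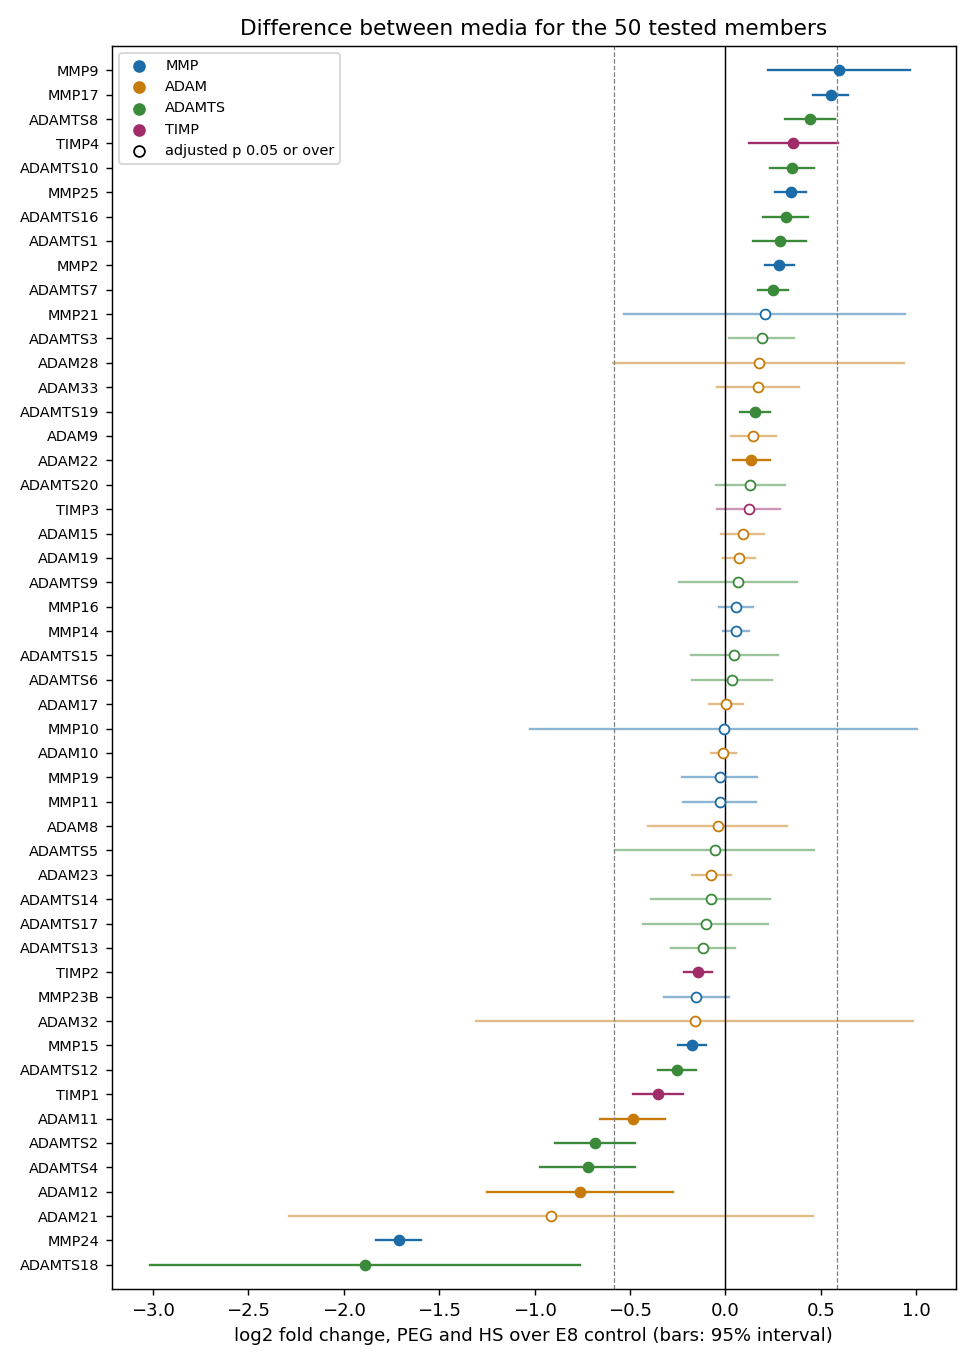
Log2FC of PEG and HS over E8 control for the 50 tested members (x axis, one row per gene, coloured by family), with 95% intervals as bars and filled points for an adjusted p under 0.05. Dashed lines mark a 1.5-fold difference. MMP24 at -1.71 stands apart from the other well counted members, while the interval of ADAMTS18, which has 58 counts in all, reaches from -3.01 to -0.76.

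Levels of different genes were compared as RPKM, CPM per kilobase of annotated exon. On this scale MMP14, the transmembrane MMP also known as MT1-MMP, was the highest member, at 26.5 ± 0.655 RPKM (SD, n = 3) in PEG and HS and 25.5 ± 0.527 RPKM in E8 control. It was followed, by the mean of the 6 libraries, by MMP15, ADAMTS7, MMP2, TIMP1, TIMP2, MMP25, ADAMTS19, MMP17 and MMP24. ADAM10 was the highest ADAM, with 9.29 ± 0.186 RPKM in PEG and HS and 9.36 ± 0.280 RPKM in E8 control. This ranking depends on the exon length, which joins all annotated exons and was 15979 bases for ADAM10 and 4623 for MMP14. In CPM ADAM10 lay over MMP14, at 148 against 122 in PEG and HS and 150 against 118 in E8 control. The order of the leading genes was not the same in both media. In E8 control MMP24 (15.7 ± 1.18 RPKM) lay beside MMP2 (15.7 ± 0.584 RPKM) and ADAMTS7 (16.2 ± 0.419 RPKM), which did not differ beyond their spread. In PEG and HS MMP24 (4.78 ± 0.144 RPKM) lay far under MMP2 (19.1 ± 0.553 RPKM) and ADAMTS7 (19.3 ± 0.999 RPKM).

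**Figure D2:**
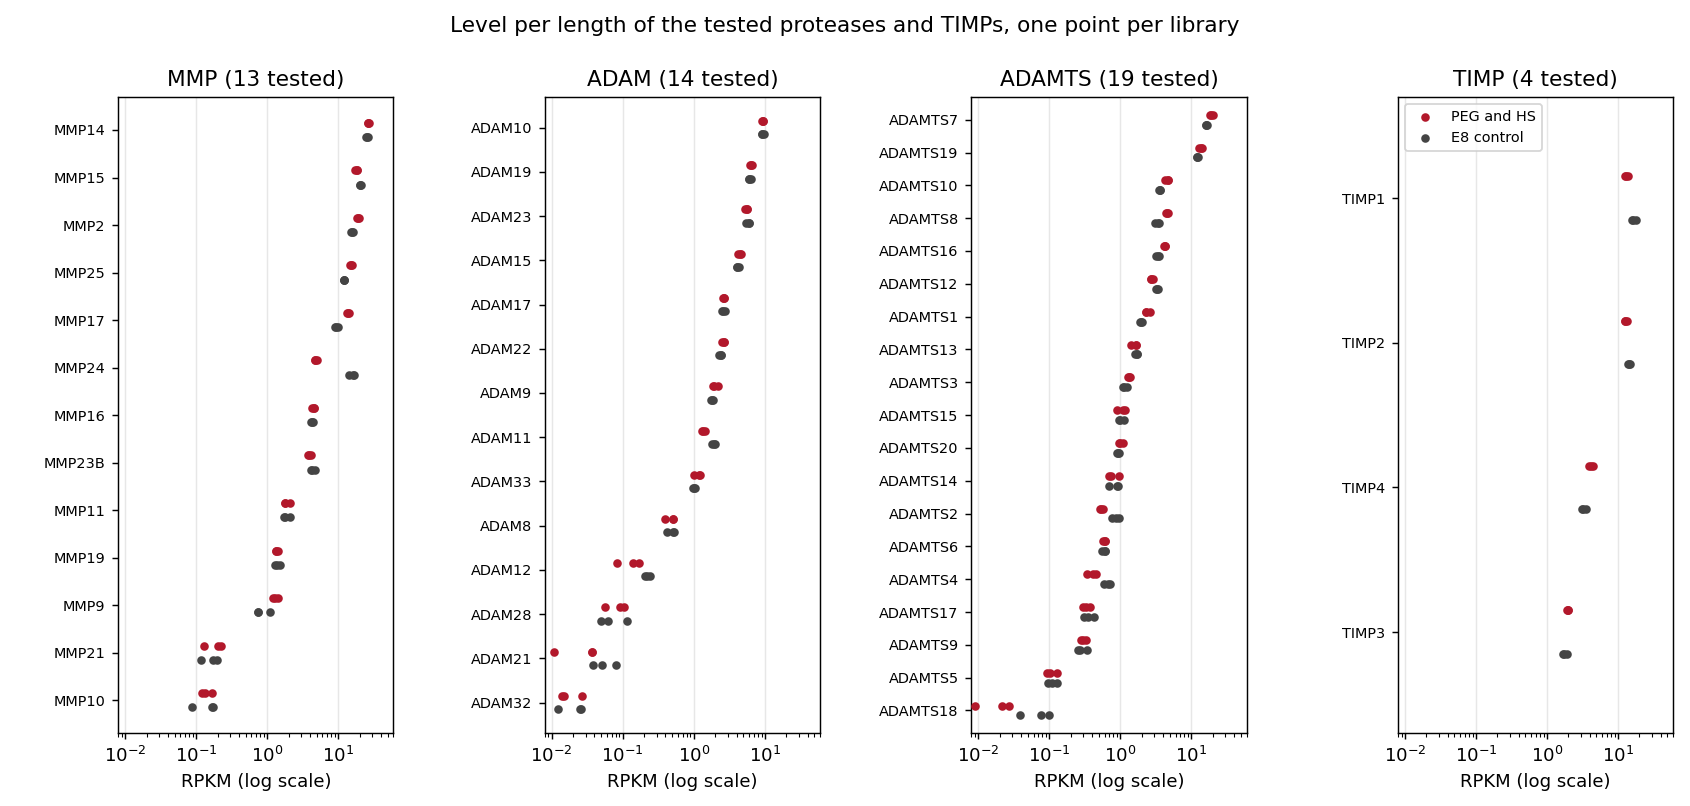
RPKM of the 50 tested members on a log axis, one panel per family and one point per library (red, PEG and HS; grey, E8 control). MMP14 leads the MMPs, ADAM10 the ADAMs, ADAMTS7 the ADAMTSs and TIMP1 and TIMP2 the inhibitors, and MMP24 shows the widest gap between media among members over 1 RPKM.

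The members without counts were grouped by position. The interval of chromosome 11 from 102520508 to 102955732 (GRCh38) holds 9 MMP genes, MMP7, MMP20, MMP27, MMP8, MMP10, MMP1, MMP3, MMP12 and MMP13. Together they had 55 counts over the 6 libraries, 48 of them in MMP10, a stromelysin with 7.11% of its transcript sequence recurring in other genes, mostly in MMP3. All 3 members classed here as collagenases (MMP1, MMP8 and MMP13) are in this group. They had 4, 0 and 1 counts over the 6 libraries. Elsewhere, MMP26 and MMP28 had 2 and 1 counts. Of the ADAMs 6 were not tested, all known from testis or epididymis. ADAM2 and ADAM30 had no count, ADAM7 and ADAM18 had 1 each, ADAM29 had 4 and ADAM20 had 6. All 19 ADAMTS genes and all 4 TIMP genes were tested. At this depth a count of 0 in a library allows up to 3 counts, for counting error only.

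Promoter windows of RefSeq (GRCh38.p14, 250 bases before to 50 bases after the annotated start) were matched for 39 of the 66 members. The silent members had windows of lower GC content. In the 8 matched genes that were not tested the median GC content was 39.8% and none held a GC box (GGGCGG, either strand). Of these, MMP7, MMP8, MMP20 and MMP27 are neighbours in the chromosome 11 group, at 33.3% to 44.3% GC. The others, ADAM20, ADAM29, ADAM30 and MMP26, were at 37.3% to 53.7% GC. The matched genes called higher (5), called lower (7) and tested without a call (19) had median GC contents of 70.7%, 73.0% and 72.7%, and 5, 7 and 14 of them held a GC box. Over the 15321 promoters matched to genes of the count files the median GC content was 63.0%, and 59.3% held a GC box. A TATA box (TATAAA, either strand) was found in 4 of the 8 genes not tested and 9.61% of all promoters. An AP-1 site (TGANTCA, either strand) was found in 2 of the 8 and 5.74% of all promoters. Those 2 genes, MMP7 and MMP20, are both of the chromosome 11 group. These matches describe the letters of the windows only.

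Windows are shown here for MMP24, which had the largest fall among well counted members, for ADAMTS10 and TIMP1, which moved in opposite directions, and for MMP7 as a silent gene of the chromosome 11 group. They are written 5′ to 3′ on the strand of the gene, and capitals mark GC boxes, TATA boxes and AP-1 sites. MMP24 (chr20:35226440-35226739, plus strand, 80.0% GC) holds 3 GC boxes. ADAMTS10 (chr19:8610666-8610965, minus strand, 79.3% GC) holds 6 GC boxes and 1 TATA box, and TIMP1 (chrX:47582186-47582485, plus strand, 65.0% GC) holds 2 GC boxes. MMP7 (chr11:102530698-102530997, minus strand, 35.7% GC) holds 1 AP-1 site and 1 TATA box and no GC box.
MMP24: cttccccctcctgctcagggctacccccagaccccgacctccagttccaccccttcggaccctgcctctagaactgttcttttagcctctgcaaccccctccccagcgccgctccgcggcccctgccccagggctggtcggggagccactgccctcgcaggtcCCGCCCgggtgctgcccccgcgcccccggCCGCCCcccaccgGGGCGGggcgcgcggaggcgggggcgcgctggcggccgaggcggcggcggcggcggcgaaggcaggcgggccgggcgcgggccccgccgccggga
ADAMTS10: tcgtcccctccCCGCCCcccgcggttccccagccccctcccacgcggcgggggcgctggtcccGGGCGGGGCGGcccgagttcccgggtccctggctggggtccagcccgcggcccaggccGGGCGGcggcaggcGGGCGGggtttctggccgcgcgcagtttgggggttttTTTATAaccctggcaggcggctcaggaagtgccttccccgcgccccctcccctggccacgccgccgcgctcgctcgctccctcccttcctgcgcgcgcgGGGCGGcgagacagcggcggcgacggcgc
TIMP1: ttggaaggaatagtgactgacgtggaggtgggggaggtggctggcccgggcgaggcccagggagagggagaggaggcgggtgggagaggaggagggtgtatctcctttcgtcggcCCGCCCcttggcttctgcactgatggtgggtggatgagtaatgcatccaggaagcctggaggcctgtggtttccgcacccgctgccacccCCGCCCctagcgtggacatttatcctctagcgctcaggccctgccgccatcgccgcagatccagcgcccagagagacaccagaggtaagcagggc
MMP7: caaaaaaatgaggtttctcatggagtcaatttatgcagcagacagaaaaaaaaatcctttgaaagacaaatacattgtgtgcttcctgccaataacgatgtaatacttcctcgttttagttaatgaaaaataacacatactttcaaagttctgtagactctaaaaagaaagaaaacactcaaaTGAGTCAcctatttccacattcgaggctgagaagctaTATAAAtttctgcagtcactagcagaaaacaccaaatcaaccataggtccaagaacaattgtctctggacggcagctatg

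MMP24 (ENSG00000125966, chromosome 20, 35226690 to 35276998) encodes a transmembrane MMP known from the nervous system, MT5-MMP. It was measured at 20.6, 20.6 and 21.7 CPM in the 3 treated libraries against 62.7, 72.5 and 70.4 CPM in the 3 controls. Each PEG and HS library lay under each E8 control library. In all pairs of values that follow, PEG and HS comes first unless stated. The level fell 3.28-fold (log2FC -1.71, SE 0.055, adjusted p = 5.8e-12). MMP24 was the only member called when the difference was tested against 1.5-fold in place of 0, and it kept an adjusted p of at most 2.11e-09 under every alternative run. MMP24OS, a coding gene with exons on the opposite strand of the same locus, was at 22.3 ± 0.348 CPM (SD, n = 3) in the treated libraries against 31.6 ± 0.473 CPM in the controls (log2FC -0.50, SE 0.046, adjusted p = 9.06e-07). The libraries are stranded, but the sources used here do not say whether strand was used in counting, so part of the reads may be exchanged between the pair. The neuroectoderm markers (33.5 to 37.5 against 142 to 147 CPM in sum) were also lower in PEG and HS, and their part in this difference was not tested.

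Of the other transmembrane MMPs 1 passed the test. MMP15 (ENSG00000102996), MT2-MMP, was at 73.5, 78.6 and 79.0 CPM in the treated libraries against 86.8, 87.4 and 86.9 CPM in the controls. It was 1.13-fold lower without overlap (log2FC -0.18, SE 0.034, adjusted p = 0.00136). MMP14 (ENSG00000157227), which activates the proenzyme of MMP2 at the cell surface, was at 120.8, 125.9 and 120.6 CPM in the treated libraries against 120, 118.2 and 115.2 CPM in the controls. The libraries did not overlap, but the difference did not pass the test (log2FC 0.056, 95% interval -0.010 to 0.12, adjusted p = 0.218). MMP16, MT3-MMP, was at 55.4, 52.0 and 55.8 CPM in the treated libraries against 54.2, 50.5 and 52.5 CPM in the controls, with overlap (log2FC 0.056, 95% interval -0.031 to 0.14, adjusted p = 0.357). Both intervals lie far from the value of MMP24.

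Both GPI-anchored MMPs rose. MMP17 (ENSG00000198598, chromosome 12, 131828393 to 131851783), MT4-MMP, was at 54.0, 56.2 and 55.1 CPM in the treated libraries against 39.8, 36.8 and 36.4 CPM in the controls. The level was 1.47-fold higher (log2FC 0.55, SE 0.042, adjusted p = 1.21e-07). MMP25 (ENSG00000008516, chromosome 16, 3046062 to 3060726), MT6-MMP, an enzyme known from neutrophils, was at 72.8, 75.3 and 69.1 CPM in the treated libraries against 57.4, 56.8 and 57.1 CPM in the controls. It was 1.27-fold higher (log2FC 0.34, SE 0.037, adjusted p = 5.76e-06). Neither gene had overlapping libraries. An antisense RNA, MMP25-AS1, overlaps MMP25.

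Both gelatinases, which cut denatured collagen and type IV collagen of basement membranes, were also higher in PEG and HS. MMP2 (ENSG00000087245, chromosome 16, 55389700 to 55506691) was at 87.7, 92.8 and 89.4 CPM in the treated libraries against 77.1, 72.8 and 72.0 CPM in the controls. The difference was 1.22-fold without overlap (log2FC 0.28, SE 0.036, adjusted p = 2.80e-05). MMP9 (ENSG00000100985) had far fewer reads, with 3.0, 3.29 and 2.81 CPM in the treated libraries against 1.71, 1.72 and 2.52 CPM in the controls. Its replicates were further apart, with E8 control replicate 3 closest to the treated libraries. The difference was 1.51-fold (log2FC 0.59, SE 0.17, adjusted p = 0.0206), but the call for MMP9 was lost without PEG and HS replicate 1 (adjusted p = 0.0580), PEG and HS replicate 2 (0.0738), E8 control replicate 1 (0.0788) or E8 control replicate 2 (0.0886).

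No other MMP passed the test. Of the 13 tested MMPs 4 were higher and 2 lower. This share of 46.2% compares with 25.3% of all genes tested and 32.9% of those with at least 10 CPM. MMP11, stromelysin 3, had 9.62 ± 0.866 CPM (SD, n = 3) in the treated libraries against 9.74 ± 1.05 CPM in the controls (log2FC -0.030, 95% interval -0.22 to 0.16, adjusted p = 0.854). MMP19 had 6.35 ± 0.209 and 6.51 ± 0.576 CPM (adjusted p = 0.857). MMP23B, a small membrane MMP, had 8.71 ± 0.424 and 9.69 ± 0.729 CPM without overlap (log2FC -0.15, adjusted p = 0.186). In MMP23B 41.8% of the transcript sequence recurs elsewhere, mostly in the pseudogene MMP23A, and the gene has exons opposite to CDK11B, so its count is uncertain. MMP10 and MMP21 lay under 1 CPM in each library, and their intervals were wide (-1.02 to 1.0 and -0.53 to 0.94 on the log2 scale).

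**Figure D3:**
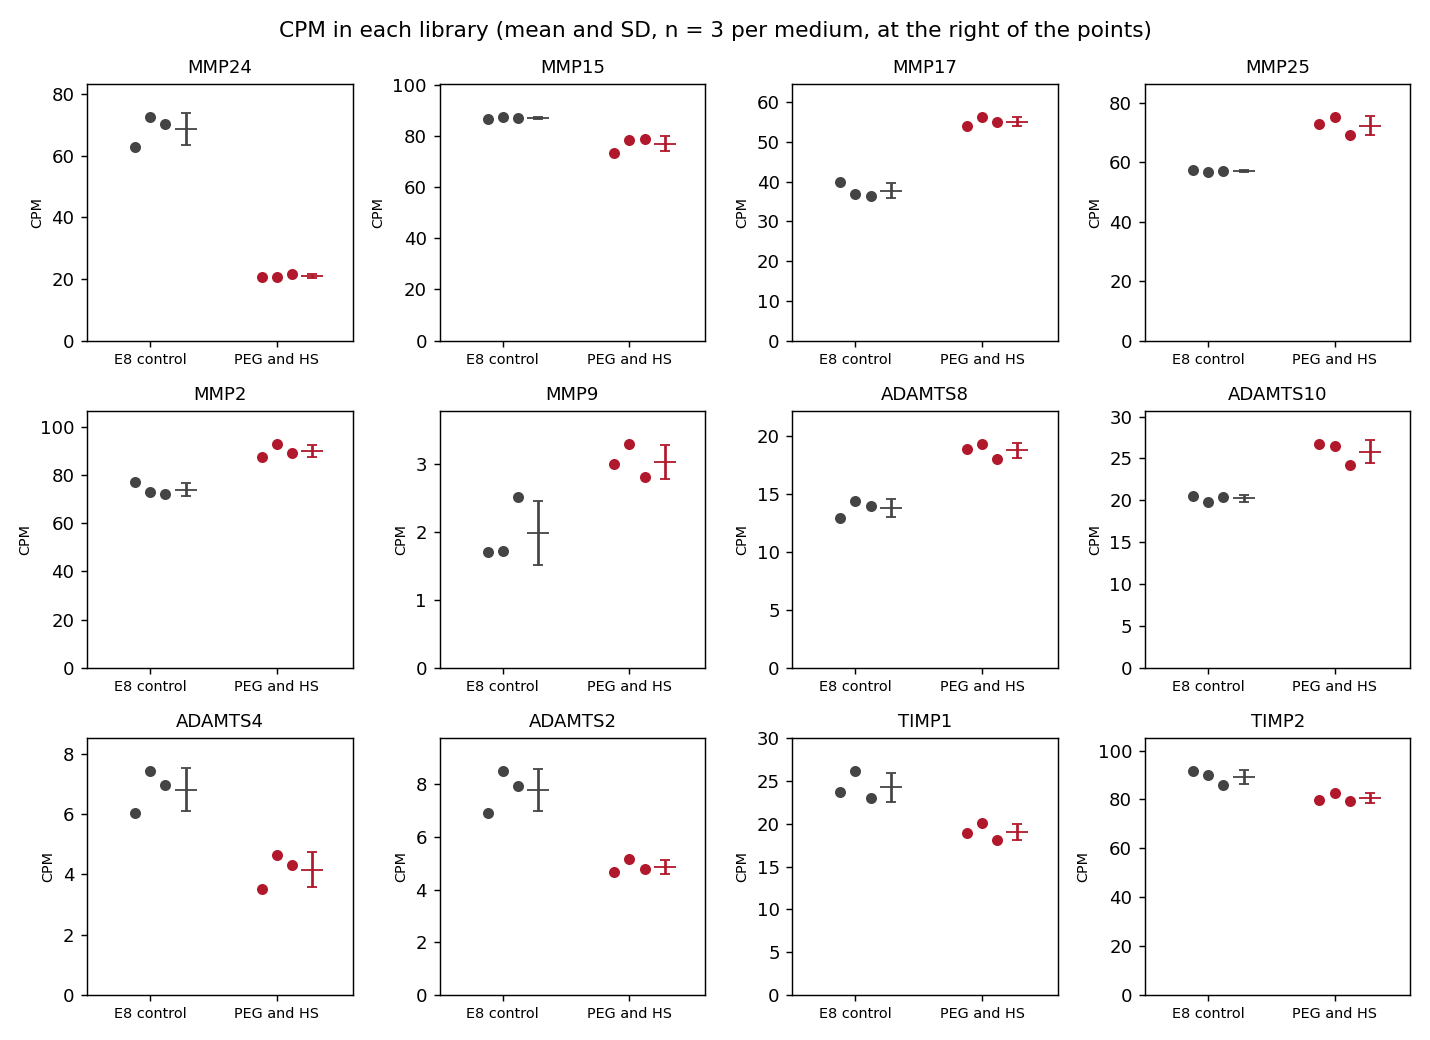
CPM in each library for 12 members (y axes start at 0), with E8 control in grey, PEG and HS in red, and the mean and SD of 3 libraries at the right of the points. MMP24 drops from 68.5 to 20.9 CPM on average, MMP17, MMP25, MMP2, ADAMTS8 and ADAMTS10 are higher in each PEG and HS library, and ADAMTS4, ADAMTS2, TIMP1 and TIMP2 are lower in each.

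The ADAM family had the smallest share of calls of the 4 families. Of its 14 tested genes 1 was higher and 2 were lower (21.4%, against 25.3% of all genes tested), and with single libraries left out 0 to 2 were higher and 1 or 2 lower. The best known sheddases did not pass the test. ADAM10 (ENSG00000137845), which cleaves cadherins and Notch, was at 149.8, 145.0 and 150.4 CPM in the treated libraries against 147.0, 146.8 and 154.7 CPM in the controls (log2FC -0.011, 95% interval -0.077 to 0.055, adjusted p = 0.835). ADAM17 (ENSG00000151694), which releases TNF and ligands of the EGF receptor, was at 41.4, 42.1 and 42.2 CPM and 41.1, 40.3 and 43.9 CPM (log2FC 0.0025, 95% interval -0.088 to 0.093, adjusted p = 0.979). In both genes the media overlapped.

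Among the other ADAMs with a protease site, ADAM9 was at 38.5, 33.2 and 34.5 CPM in the treated libraries against 32.4, 30.7 and 33.0 CPM in the controls. Its libraries did not overlap, and it was the gene closest to the limit without passing it (log2FC 0.15, adjusted p = 0.0688). With single libraries left out the adjusted p of ADAM9 ranged from 0.0329 without PEG and HS replicate 2 to 0.340 without PEG and HS replicate 1, where the log2FC was 0.079. ADAM19 (meltrin beta) was at 48.3, 48.9 and 50.6 CPM and 46.7, 48.6 and 45.5 CPM, with overlap (adjusted p = 0.223), and ADAM15 at 30.8, 29.2 and 27.8 CPM and 28.7, 27.0 and 27.0 CPM, also with overlap (adjusted p = 0.237). ADAM12 (meltrin alpha) was the only gene of this group that was called, from 334 counts. It was at 0.830, 1.38 and 1.68 CPM in the treated libraries against 2.19, 2.37 and 2.05 CPM in the controls, 1.70-fold lower (log2FC -0.76, SE 0.23, adjusted p = 0.0234). The adjusted p of ADAM12 rose to 0.0973 without PEG and HS replicate 1, 0.0537 without E8 control replicate 1 and 0.0760 without E8 control replicate 2. ADAM8, ADAM28, ADAM33 and ADAM21 were not called. Of these ADAM33 was the highest, with 6.09 ± 0.672 CPM in the treated libraries against 5.43 ± 0.120 CPM in the controls, while ADAM21 had 26 counts and shares 33.6% of its sequence with other genes.

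ADAM11, ADAM22 and ADAM23 lack a protease site and act as receptors of LGI proteins at neural cell surfaces. They did not move together. ADAM11 (ENSG00000073670) was at 6.88, 6.19 and 6.47 CPM in the treated libraries against 8.75, 9.48 and 9.14 CPM in the controls, 1.40-fold lower without overlap (log2FC -0.49, SE 0.079, adjusted p = 0.000317). ADAM22 was at 36.7, 34.2 and 35.9 CPM and 32.7, 31.3 and 33.3 CPM, a 1.10-fold higher level without overlap (log2FC 0.14, SE 0.046, adjusted p = 0.0421). ADAM22 was the called member closest to the limit. Its adjusted p was 0.108 with DESeq2 and 0.162, 0.0990, 0.0825 and 0.166 without PEG and HS replicates 1 and 3 and E8 control replicates 1 and 2. ADAM23 was at 33.9, 36.3 and 35.8 CPM and 34.7, 38.5 and 37.9 CPM, with overlap (log2FC -0.073, 95% interval -0.18 to 0.031, adjusted p = 0.309). ADAM32, a testis gene without a protease site, had 38 counts and was not called.

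In the ADAMTS family 6 of 19 genes were higher and 4 lower (52.6%, against 25.3% of all genes tested and 32.9% of those with at least 10 CPM). The hyalectanases, which cut versican, aggrecan and related proteoglycans, went both ways. ADAMTS8 (ENSG00000134917, chromosome 11, 130404923 to 130428609) was at 18.9, 19.3 and 18 CPM in the treated libraries against 12.9, 14.4 and 13.9 CPM in the controls, 1.36-fold higher (log2FC 0.44, SE 0.062, adjusted p = 6.96e-05). Its neighbour ADAMTS15, within the same 71.7 kb, did not pass the test, with 6.37 ± 0.824 and 6.18 ± 0.501 CPM (adjusted p = 0.796). ADAMTS1 (ENSG00000154734) was at 18.9, 16.9 and 16.9 CPM and 15, 14.5 and 13.9 CPM, 1.22-fold higher (log2FC 0.29, SE 0.065, adjusted p = 0.0043). ADAMTS5, next to ADAMTS1 on chromosome 21, had only 1.05 ± 0.173 and 1.09 ± 0.168 CPM (adjusted p = 0.900). ADAMTS4 (ENSG00000158859) went down, from 6.04, 7.42 and 6.98 CPM in E8 control to 3.53, 4.64 and 4.31 CPM in PEG and HS, 1.65-fold (log2FC -0.72, SE 0.12, adjusted p = 0.000294). ADAMTS1, ADAMTS4 and ADAMTS8 had no overlap between media. ADAMTS9 and ADAMTS20 were not called, with adjusted p of 0.789 and 0.295.

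Of the procollagen N-proteinases, which trim fibrillar procollagens, ADAMTS2 (ENSG00000087116) fell. It was at 4.66, 5.17 and 4.79 CPM in the treated libraries against 6.93, 8.50 and 7.93 CPM in the controls, 1.61-fold lower without overlap (log2FC -0.68, SE 0.098, adjusted p = 9.17e-05). ADAMTS3, which also activates VEGFC, was at 9.52, 8.88 and 9.19 CPM and 7.78, 7.60 and 8.76 CPM. It did not pass the test in spite of libraries that did not overlap (log2FC 0.19, adjusted p = 0.0969, from 0.0446 without E8 control replicate 3 to 0.290 without E8 control replicate 2). ADAMTS14 had 4.46 ± 0.813 and 4.68 ± 0.730 CPM (SD, n = 3, adjusted p = 0.751).

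ADAMTS7 and ADAMTS12, which cut cartilage oligomeric matrix protein, moved in opposite directions. ADAMTS7 (ENSG00000136378, chromosome 15, 78759206 to 78811464), the ADAMTS with the most reads, was at 148.5, 157.8 and 142.4 CPM in the treated libraries against 129.4, 123.1 and 125.2 CPM in the controls, 1.19-fold higher without overlap (log2FC 0.25, SE 0.037, adjusted p = 0.000132). In ADAMTS7 26.5% of the transcript sequence recurs elsewhere, mostly in the pseudogene ADAMTS7P1, so its level depends on how shared reads were counted. ADAMTS12 was at 25.8, 25.9 and 27.4 CPM and 30.6, 31.5 and 32.1 CPM, 1.19-fold lower without overlap (log2FC -0.25, SE 0.047, adjusted p = 0.000974). ADAMTS10, which binds fibrillin microfibrils, was at 26.7, 26.5 and 24.2 CPM and 20.5, 19.8 and 20.5 CPM, 1.27-fold higher (log2FC 0.35, SE 0.054, adjusted p = 0.000202). Its close relative ADAMTS6 had 5.16 ± 0.211 and 5.03 ± 0.282 CPM (adjusted p = 0.834).

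ADAMTS16 was at 23.9, 24.8 and 24.9 CPM in the treated libraries against 20.9, 19.7 and 18.6 CPM in the controls, 1.25-fold higher (log2FC 0.32, SE 0.055, adjusted p = 0.000555). ADAMTS19 was at 75.1, 73.6 and 69.4 CPM and 66.1, 64.7 and 64.9 CPM, 1.11-fold higher (log2FC 0.16, SE 0.036, adjusted p = 0.00527). Neither had overlapping libraries. ADAMTS18 was nearly silent, with 2, 4 and 6 counts in PEG and HS and 7, 21 and 18 counts in E8 control (log2FC -1.89, SE 0.53, adjusted p = 0.0158). The call of ADAMTS18 was lost without PEG and HS replicate 1 (adjusted p = 0.0749) or E8 control replicate 2 (adjusted p = 0.0740), and DESeq2 gave it no adjusted p. ADAMTS13, which cleaves von Willebrand factor, had 8.95 ± 0.789 and 9.67 ± 0.290 CPM (SD, n = 3, adjusted p = 0.322), and ADAMTS17 had 2.82 ± 0.358 and 3.06 ± 0.474 CPM (adjusted p = 0.681).

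Of the 4 TIMP inhibitors, 2 were lower, 1 was higher and 1 did not pass the test. The called share was 75% of only 4 genes, against 25.3% of all genes tested and 32.9% of those with at least 10 CPM. TIMP1 (ENSG00000102265, X chromosome, 47582408 to 47586789), a secreted inhibitor of most MMPs, was at 18.9, 20.1 and 18.1 CPM in the treated libraries against 23.7, 26.1 and 23.0 CPM in the controls. It was 1.28-fold lower without overlap (log2FC -0.35, SE 0.062, adjusted p = 0.000576). TIMP2 (ENSG00000035862, chromosome 17, 78852977 to 78925387), which bridges MMP14 and the proenzyme of MMP2, was at 79.6, 82.7 and 79.5 CPM and 91.4, 90.2 and 85.9 CPM, 1.11-fold lower without overlap (log2FC -0.15, SE 0.034, adjusted p = 0.00563). TIMP3, which binds to the matrix and also inhibits ADAM17 and several ADAMTSs, was at 8.75, 9.17 and 9.07 CPM and 8.97, 8.06 and 7.84 CPM, with overlap (log2FC 0.12, 95% interval -0.044 to 0.29, adjusted p = 0.288). TIMP4 was at 5.28, 5.06 and 4.76 CPM and 4.23, 3.69 and 3.91 CPM, 1.28-fold higher (log2FC 0.36, SE 0.11, adjusted p = 0.0261). Its call was lost with DESeq2 (adjusted p = 0.0966) and without PEG and HS replicate 1 (0.101), PEG and HS replicate 2 (0.0669), E8 control replicate 2 (0.0977) or E8 control replicate 3 (0.0637). SYN2 has exons on the opposite strand of TIMP4 and was at 10.8 ± 0.0791 and 9.32 ± 0.978 CPM (adjusted p = 0.0752).

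Summed over each family, the level per length overlapped between media for MMPs and ADAMs. The MMPs summed to 109.0, 113.4 and 110.5 RPKM in PEG and HS and 112.4, 112.4 and 111.4 RPKM in E8 control, so that the media overlapped. Without MMP24 the MMPs came to 106 ± 2.27 RPKM (SD, n = 3) and 96.4 ± 1.45 RPKM. The sum of the membrane-anchored MMPs, which left out MMP23B, was at 83.0 ± 1.58 and 87.5 ± 0.560 RPKM. It turned direction without MMP24, to 78.2 ± 1.62 and 71.8 ± 1.06 RPKM. The ADAMs summed to 36.1 ± 0.449 and 36.0 ± 0.413 RPKM. The ADAMTSs were higher in each PEG and HS library, with 59.6, 60.9 and 57.1 RPKM against 52.9, 51.9 and 52.4 RPKM, and remained so without ADAMTS7 (39.9 ± 0.985 against 36.2 ± 0.108 RPKM). The TIMPs were lower in each, with 32.2, 33.4 and 31.3 RPKM against 36.6, 37.4 and 34.7 RPKM. How families compare with each other depends on the exon lengths. In CPM the MMPs summed to 521 and 523 and the ADAMs to 392 and 388. The sums are descriptions of RNA and were not tested, and the sums without a gene were chosen after seeing the data.

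**Figure D4:**
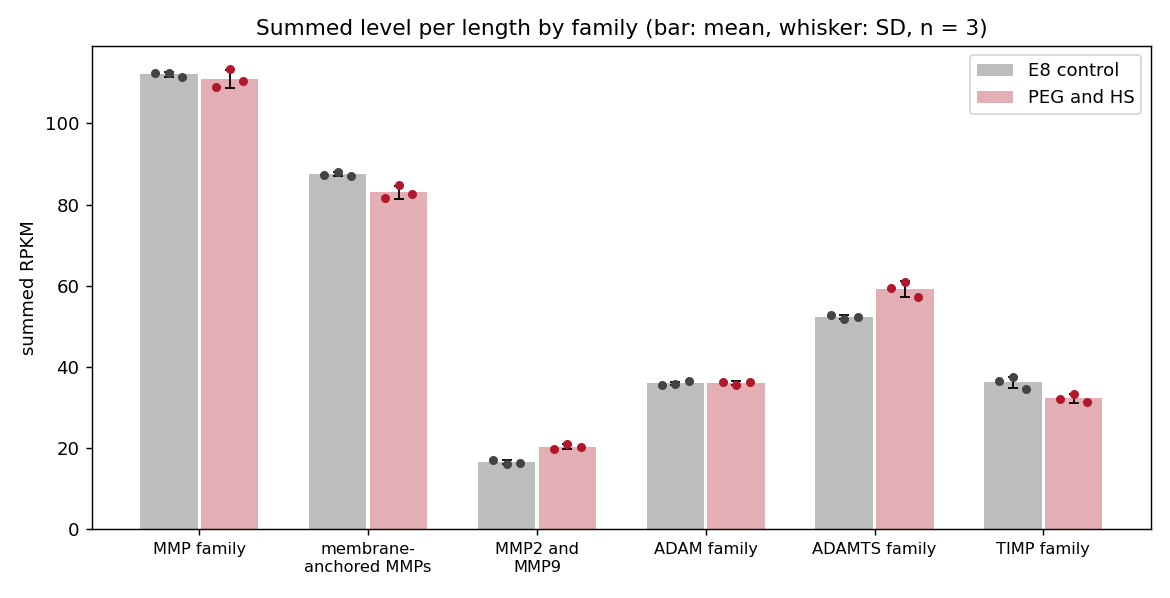
Summed RPKM of each family, of the 6 membrane-anchored MMPs and of the gelatinases MMP2 and MMP9 (bars, mean of 3 libraries; whiskers, SD; points, libraries; the axis starts at 0). The MMP and ADAM sums overlap between media, and the sum of ADAMTSs and that of gelatinases are higher in each PEG and HS library. The sums of TIMPs and of membrane-anchored MMPs are lower in each, the last turning to higher without MMP24. MMP23B is not among the membrane-anchored MMPs summed here.

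Genes that work with these proteases were counted in lists written from general knowledge. Of 15 activators and tethering partners 1 was higher and 3 were lower (26.7% of those tested, near the 25.3% of all genes tested). The convertase FURIN, which removes propeptides, and RECK, a membrane inhibitor of MMPs, were not called. The called genes included tetraspanins that guide ADAM10 to its substrates. TSPAN5 was at 38.8 ± 1.19 CPM (SD, n = 3) in the treated libraries against 33.3 ± 0.617 CPM in the controls (log2FC 0.22, SE 0.043, adjusted p = 0.00125). TSPAN15 was at 5.59 ± 0.642 and 7.89 ± 0.252 CPM (log2FC -0.49, SE 0.094, adjusted p = 0.00119), and TSPAN17 at 58.0 ± 1.28 and 64.5 ± 2.98 CPM (log2FC -0.16, SE 0.039, adjusted p = 0.00866).

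In the plasminogen system, a serine protease route that also activates MMPs, 3 of 10 tested genes were lower and none was higher. The called share was 30%, near the 25.3% of all genes tested. ANXA2, a cell surface receptor of plasminogen, was at 30.3 ± 1.96 CPM (SD, n = 3) in the treated libraries against 51.5 ± 0.861 CPM in the controls (log2FC -0.76, SE 0.047, adjusted p = 9.59e-09). PLAU, the urokinase activator, was at 10.9 ± 1.01 and 12.8 ± 0.439 CPM (log2FC -0.23, SE 0.074, adjusted p = 0.0336). The adjusted p of PLAU was 0.0558 to 0.125 without PEG and HS replicate 1 or 2 or any of the 3 E8 control replicates, and 0.0858 with DESeq2. In the 7 ADAMTS-like genes, which resemble ADAMTSs but lack the protease, only PAPLN (papilin) was called (14.3%). It was at 16.4 ± 0.267 and 43.4 ± 1.94 CPM (log2FC -1.40, SE 0.050, adjusted p = 1.83e-11). THSD4 had 8.59 ± 0.710 and 9.87 ± 0.703 CPM (adjusted p = 0.0812, 0.0406 without PEG and HS replicate 2, 0.0470 without E8 control replicate 1 and 0.183 to 0.238 without each of the others), and ADAMTSL1 had 1.38 ± 0.359 and 0.918 ± 0.183 CPM (adjusted p = 0.117).

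Of the 7 astacins and enhancers of procollagen C-proteinase 5 were tested, with 1 higher and 2 lower. The called share was 60% of only 5 genes, against 25.3% of all genes tested and 32.9% of those with at least 10 CPM. TLL2, a tolloid protease, was at 7.77 ± 0.998 CPM (SD, n = 3) in the treated libraries against 5.63 ± 0.181 CPM in the controls (log2FC 0.47, SE 0.10, adjusted p = 0.00268). PCOLCE2 was at 10.2 ± 0.374 and 12.8 ± 0.694 CPM (log2FC -0.32, SE 0.069, adjusted p = 0.00288), and PCOLCE at 17.4 ± 0.541 and 20.2 ± 0.592 CPM (log2FC -0.21, SE 0.055, adjusted p = 0.0109). BMP1, the main procollagen C-proteinase, was not called.

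Genes of the substrates were counted beside the 12.2% of all genes tested that were called higher and the 13.1% called lower, with no test of the difference. In the list of hyalectans and hyaluronan matrix 2 of 12 genes were higher and 6 lower, with 3 lower without E8 control replicate 1. Both higher genes are hyaluronan synthases. HAS3 was at 147 ± 1.304 CPM (SD, n = 3) in the treated libraries against 99.8 ± 4.98 CPM in the controls (log2FC 0.56, SE 0.035, adjusted p = 9.2e-09), and HAS2 at 8.70 ± 0.611 and 6.79 ± 0.318 CPM (log2FC 0.36, SE 0.084, adjusted p = 0.00532). HAPLN1, a link protein that joins hyalectans to hyaluronan, was at 1.71 ± 0.185 and 3.22 ± 0.282 CPM (log2FC -0.91, SE 0.16, adjusted p = 0.000468). The lower genes also included ACAN, BCAN and NCAN, while VCAN was not called.

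Of the 11 other ADAMTS substrates and their partners 6 were lower and none was higher. COL1A1 was at 60.1 ± 3.02 CPM (SD, n = 3) in the treated libraries against 120 ± 5.23 CPM in the controls (log2FC -1.0, SE 0.041, adjusted p = 9.67e-11), FBN1 at 8.90 ± 0.706 and 12.6 ± 1.08 CPM (log2FC -0.51, SE 0.082, adjusted p = 0.000252), and VWF at 0.853 ± 0.276 and 2.34 ± 0.0916 CPM (log2FC -1.47, SE 0.22, adjusted p = 0.00017). COL1A1, COL1A2 and COL3A1 are also among the fibroblast and mesenchyme markers, of which 4 of 9 were lower. COL1A2 was not called, at 98.4 ± 0.612 and 104 ± 3.73 CPM (log2FC -0.078, adjusted p = 0.0989). The part of these markers in the falls of ADAMTS2 and TIMP1 was not tested. Of the 18 tested surface proteins that ADAM10 or ADAM17 can shed, 3 were higher and 8 lower. L1CAM was at 66.7 ± 0.812 and 44.6 ± 1.1 CPM (log2FC 0.58, SE 0.036, adjusted p = 9.08e-09). ALCAM was at 36.8 ± 1.08 and 54.6 ± 1.65 CPM (log2FC -0.57, SE 0.041, adjusted p = 5.13e-08), and CDH1, E-cadherin, at 445 ± 10.9 and 584 ± 19.2 CPM (log2FC -0.39, SE 0.030, adjusted p = 1.01e-07).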

How the data were processed

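RNA of 6 libraries was sequenced from polyadenylated transcripts with stranded libraries. Per the submitters' processing notes and methods, reads went through Trim Galore 0.6.7 and STAR 2.6.1 (GRCh38) in an nf-core pipeline, and the authors deposited raw counts per gene, one library per file. The counting tool, its use of strand and its treatment of reads shared by several genes are not given in the sources used here. Of the 19977 gene identifiers 19916 matched GENCODE 44, which gave symbols, coordinates (GRCh38) and exon lengths.

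From these counts, genes with a total of at least 10 were tested with edgeR 4.0.16 in R 4.3.3 (TMM, glmQLFit and glmQLFTest, no covariate), PEG and HS against E8 control, with Benjamini-Hochberg adjustment over all genes tested. SE was taken as the size of the log2 fold change divided by the root of the F statistic. CPM use TMM-scaled library sizes, and RPKM divide CPM by the union of a gene's exons. Shared sequence is the share of a gene's 31-base words found in transcripts of other genes. Chi-square tests between replicates gave 2.61 to 3.60 per degree of freedom, beyond sampling noise, and all libraries entered as replicates. The smallest two-sided p of an exact permutation test with 3 libraries in each group is 0.1.

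The members and lists were chosen with earlier results of these data known. Named with values were members that were called, that reached 10 CPM in a medium or that are TIMPs, the members nearest the limit, and in each other list the 3 genes with the smallest adjusted p, of which 1 is not reported here. Other genes were named after their values were seen. Alternatives were DESeq2 1.42.0, RLE size factors, library size alone, 2 other filters, a block for the replicate number, leaving out single libraries, and a test against 1.5-fold. On simulated counts of this comparison with 200 of 16505 genes changed, edgeR recovered 80.5% of all changes and 87.0% of the 2-fold changes. Of its calls there 6.40% were false. In the data 25.3% of the genes tested were called, so these simulated shares need not hold for them.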

Additional observations from a re-analysis of the deposited data

How the results depend on the processing

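Tested against 1.5-fold in place of 0, edgeR called 30 genes higher and 234 lower over all genes tested, 0 members higher and 1 lower (MMP24), and 0 genes of the other lists higher and 4 lower. At an unadjusted p under 0.05 in that test, 0 members were higher and 3 lower, and 0 genes of the lists were higher and 7 lower, while DESeq2, tested against 0, called 10 members higher and 9 lower and 7 list genes higher and 26 lower. RLE size factors, library size alone and no filter kept all 22 called members, and a filter of 1 CPM in 3 libraries kept 21 and left ADAMTS18 untested. Of the 22, 17 were called under each alternative but the 1.5-fold test. The others were ADAM12, ADAM22, ADAMTS18, MMP9 and TIMP4. With each library left out the members called higher ranged from 9 to 12 and those lower from 8 to 10. No result reversed. Deviations of same-numbered libraries correlated at 0.031 to 0.043. Only PEG and HS replicate 3 correlated best with its own number (0.0434, against 0.0427 with E8 control replicate 2). With 3 libraries per medium, correlations this weak cannot decide whether the replicate numbers mark pairs. With the replicate block 13 members were higher and 10 lower, ADAM9 being added (adjusted p = 0.0424), and 2187 genes were higher and 2257 lower in all. Genes with few counts, such as ADAMTS18, MMP10 or MMP21, cannot show small differences at this depth.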
